A study of Mus musculus with 2 samples.

Results

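The genes described here govern whether a lymphocyte leaves a tissue or stays in it. They were chosen by name as 8 genes, of 19505 named genes on the arrays, and each was measured by 1 probe set. S1pr1, Klf2 and Foxo1 stand for egress and the naive state, and Cd69, Cd44, Itgae, Itgb7 and Itga4 for retention and adhesion. The study hybridized 1 array from circKcnt2-deficient ILC3s and 1 array from WT ILC3s, both from mice given dextran sodium sulfate (DSS), which injures the gut lining. In the circKcnt2-deficient mice, CRISPR/Cas9 had removed intronic sequences that the circular RNA circKcnt2 needs for back-splicing, in every cell of the animal. Group 3 innate lymphoid cells (ILC3s) were sorted by flow cytometry, and all mice were of C57BL/6 background. The methods describe ILC3 gates of lineage-negative cells with low CD45, without saying which gate served these arrays. Mice given DSS were about 8 weeks old, and the sources do not say whether animals were pooled.

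Sphingosine-1-phosphate (S1P) is abundant in blood and lymph and scarce within tissues, and lymphocytes that carry its receptor S1PR1 follow this gradient out. FOXO1 drives KLF2, KLF2 drives S1pr1, and these factors keep T cells in the naive, recirculating state. CD69 binds S1PR1 and has it removed from the cell surface, which holds cells in place. The integrin alphaEbeta7 (Itgae with Itgb7) binds E-cadherin on epithelium, and alpha4beta7 (Itga4 with Itgb7) binds MAdCAM-1 on gut vessels. ILC3s are known as tissue-resident cells of the gut, and the study used alpha4beta7 to gate the progenitors of innate lymphoid cells.

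All levels below are RMA levels on the log2 scale, and differences are circKcnt2-deficient minus WT. A level also carries the brightness of its probes, so levels of different genes are not comparable in size. Calls against background and the ranges of marker lists share this limit. With 1 array per genotype there was no replicate spread and no test, and precision is limited by the number of arrays. Background was set at 2.73 from odorant and pheromone receptor genes. Of all named genes, 12502 reached it on at least 1 array, and their differences had a median of 0.06 with a middle 50% of -0.20 to 0.30. The arrays also differed in Uty, a Y-linked gene, at 1.24 on the circKcnt2-deficient array and 5.26 on the WT array. Genotype and this second difference between the animals cannot be told apart. Of 11 ILC3 markers on the table, 7 were above background on both arrays, among them Id2, Il7r, Kit and Il22, which other lymphoid cells can also express. Il23r, Il1r1, Ccr6 and Ncr1 were below it on both. The 11 ran from 1.47 to 8.39 on the circKcnt2-deficient array and from 1.11 to 8.40 on the WT array. By comparison, 10 of 10 T lineage markers were above it on both, at 7.10 to 10.2 on the circKcnt2-deficient array and 6.75 to 9.98 on the WT array. The 8 immature thymocyte markers on the table of 10 listed were above background on both arrays as well, and their part in the values below was not tested.

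All 8 egress and residency genes were above background on both arrays, and none differed by 1.5-fold or more. Among all genes above background, 7.66% exceeded WT by 1.5-fold or more on the circKcnt2-deficient array and 5.22% fell short of WT by as much, so a count of 0 among 8 genes is near that background. The median difference over the 8 genes was 0.09, beside 0.06 over all genes above background. It was -0.11 for the egress and naive-state genes and 0.16 for the retention and adhesion genes, though the value for retention and adhesion genes was 0.02 after the loess correction. The differences ran over a narrow span, with Klf2 the lowest at -0.19 and Itga4 the highest at 0.57.

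**Figure D1:**
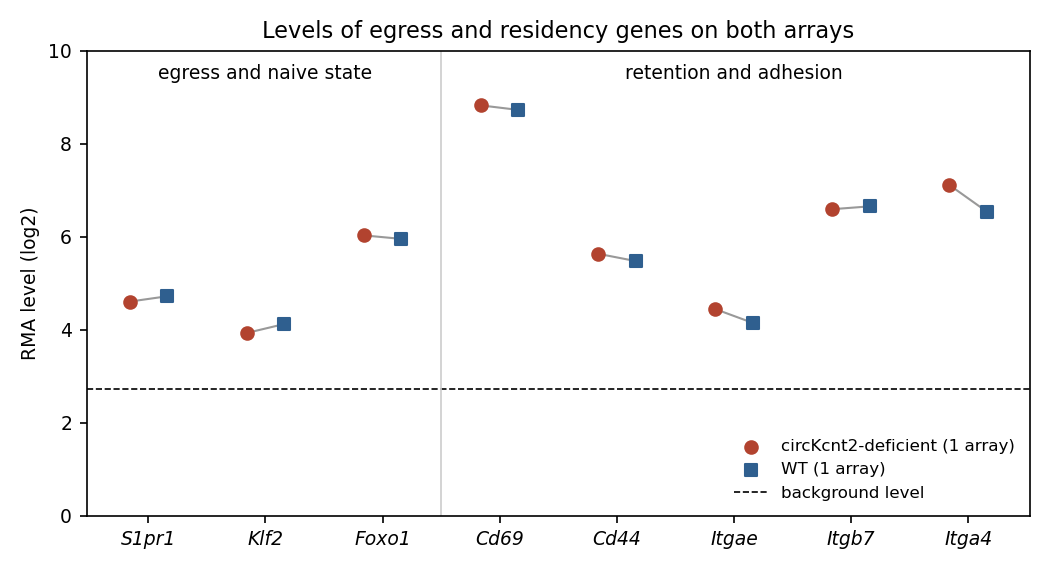
RMA level on the log2 scale (y axis) of the 8 genes (x axis) on the circKcnt2-deficient array (circle, left) and the WT array (square, right), with the background level of 2.73 as a dashed line. Each point is 1 array, without error bars. All 16 points lie above background, and the 2 points of Itga4, at 7.11 and 6.54, are the farthest apart.

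S1pr1, the receptor through which lymphocytes sense S1P, was at 4.60 on the circKcnt2-deficient array and 4.72 on the WT array. It was 1.08-fold lower on the circKcnt2-deficient array, a difference of -0.11, and 32.1% of all genes above background had a lower difference. Among the 200 genes nearest to it in mean level, the middle 50% of differences ran from -0.18 to 0.40, so S1pr1 lay within it. S1pr1 is also a strong endothelial gene. The endothelial markers Cdh5, Kdr and Tek were below background on both arrays. Pecam1, which lymphocytes carry too, was the 1 endothelial marker of 6 above it.

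The other S1P receptors showed no difference of 1.5-fold either. S1pr4, a receptor of lymphocytes, was at 5.95 on the circKcnt2-deficient array and 5.94 on the WT array. S1pr2, which restrains migration, was at 5.04 on the circKcnt2-deficient array and 4.79 on the WT array. S1pr3 and S1pr5 reached background on the WT array alone, by small margins, which puts S1pr3 at least 1.03-fold and S1pr5 at least 1.10-fold lower without circKcnt2.

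Genes that make, degrade or export S1P were mixed. Of 12 listed, 7 were above background, of which 2 were past 1.5-fold on the higher side and none on the lower. Asah1, the acid ceramidase that releases sphingosine, was at 3.74 on the circKcnt2-deficient array and 2.77 on the WT array. Cers2, a ceramide synthase, was at 5.67 on the circKcnt2-deficient array and 5.06 on the WT array. The WT level of Asah1 was close to background, where a difference is less reliable. Of the other genes of this list, the sphingosine kinase gene Sphk2 had a difference of 0.50. Spns2, an S1P exporter, had one of -0.53.

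Downstream of the receptor, 17 genes of G protein signalling and migration were above background on both arrays, with a median difference of 0.11. Among them 1 was past 1.5-fold on the lower side and none on the higher. This was Rgs2, a gene that curbs G protein signalling. Rgs2 was at 6.89 on the circKcnt2-deficient array and 7.91 on the WT array, 2.02-fold lower. Its relative Rgs1, known to blunt chemoattractant responses of lymphocytes, was at 5.09 on the circKcnt2-deficient array and 5.57 on the WT array. Grk6 and Rgs19 followed, with differences of 0.33 and 0.28.

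Klf2, the factor that drives S1pr1 transcription, was at 3.93 on the circKcnt2-deficient array and 4.12 on the WT array. At 1.14-fold lower, its difference of -0.19 was the lowest of the 8 genes, but it lay within the middle 50% of genes of like level (-0.26 to 0.19). Both Klf2 and S1pr1 kept a negative difference after quantile normalization and after the loess correction.

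Of the other KLF family factors, 10 of 16 were above background, with none past 1.5-fold on the higher side and 1 on the lower. That 1 was Klf6, an early-response factor, at 5.77 on the circKcnt2-deficient array and 6.35 on the WT array, a difference of -0.59. Klf9, a factor induced by glucocorticoids, had a difference of 0.52, and Klf1 and Klf4 had -0.32 and -0.18. The median of the family was -0.03.

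Immediate early and heat shock genes were compared beside Klf6 and Rgs2. Of 18 such genes, all above background on both arrays, 6 were past 1.5-fold on the lower side and none on the higher. Their median was -0.32. Over all genes above background, 5.22% were past 1.5-fold on the lower side and 7.66% on the higher. Fos was at 4.97 on the circKcnt2-deficient array and 6.29 on the WT array. The list ran from 2.76 to 8.82 on the circKcnt2-deficient array and from 3.27 to 9.10 on the WT array. The part of these genes in the values of the KLF and RGS genes was not tested.

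Foxo1, which keeps lymphocytes quiescent and activates naive-state genes, was at 6.03 on the circKcnt2-deficient array and 5.95 on the WT array. This difference of 0.08 took the opposite sign after quantile normalization and after the loess correction, so it had no settled direction. Its relative Foxo3 was at 5.49 on the circKcnt2-deficient array and 5.55 on the WT array. Foxo4 was at 4.04 on the circKcnt2-deficient array and 4.28 on the WT array, a difference of -0.25, and Foxo6 was below background on both arrays. The PI3K-AKT pathway keeps FOXO factors out of the nucleus. Of the 15 genes of this pathway and the FOXO family above background, none differed by 1.5-fold, and the median was 0.00. The widest differences among them were those of Mtor (0.46), the growth kinase, Pik3cd (0.30), a lymphocyte PI3-kinase subunit, Foxo4 and Akt1 (0.24). FOXO proteins are controlled mainly by phosphorylation, which arrays do not measure.

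Naive-state genes and targets of FOXO1 or KLF2 gave a like picture. Of 15 above background, 1 was past 1.5-fold on the lower side and none on the higher, and the median was -0.02. Ccr7, the receptor for entry into lymph nodes, was at 7.29 on the circKcnt2-deficient array and 7.52 on the WT array. Il7r, the receptor chain for the survival cytokine IL-7, was at 7.70 on the circKcnt2-deficient array and 7.86 on the WT array. Satb1, a chromatin organizer of thymocytes, was at 10.41 on the circKcnt2-deficient array and 10.46 on the WT array. The gene past 1.5-fold was Ly6c1, a surface antigen gene, at 6.44 on the circKcnt2-deficient array and 7.26 on the WT array. Bach2, a repressor that preserves the naive state, had a difference of 0.56, Irs2 of -0.46 and Dapl1 of 0.27.

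Cd69, the C-type lectin-like protein that removes S1PR1 from the surface, was at 8.82 on the circKcnt2-deficient array and 8.73 on the WT array. The difference of 0.10 equalled the median of genes of like level (0.10), and its sign turned after quantile normalization and the loess correction. CD69 is made during activation of lymphocytes as well as in resident cells, so its transcript alone does not separate these states.

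Cd69 lies beside Clec2d, a gene of the same lectin family, on the mouse genome. Clec2d was at 8.65 on the circKcnt2-deficient array and 8.64 on the WT array. Its difference of 0.01 was smaller than that of Cd69. Among 8 listed genes of the CLEC2 and killer lectin-like receptor families above background, 1 was past 1.5-fold in each direction by its measured values. The median was -0.06. Clec2i was at 6.52 on the circKcnt2-deficient array and 5.87 on the WT array. Klrk1, which encodes the NK receptor NKG2D, did not reach background on the circKcnt2-deficient array, so it was past 1.5-fold only by a value under that level and at least 1.38-fold lower against it. Klrb1c, the NK1.1 gene, had a difference of 0.58 and Klrd1 of -0.32.

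Cd44, the hyaluronan receptor that is high on activated and memory lymphocytes and low on naive ones, was at 5.63 on the circKcnt2-deficient array and 5.48 on the WT array. Its difference of 0.16 was close to the median of genes of like level (0.15). No gene of the hyaluronan and CD44 system differed by 1.5-fold among the 5 above background of 14 listed. The hyaluronan synthases Has1, Has2 and Has3 were below background on both arrays. Ezr and Rdx, linkers of CD44 to the cytoskeleton, had differences of -0.06 and -0.08. Hyal2, a hyaluronidase, had -0.41, and Hmmr, a hyaluronan receptor that rises with mitosis, 0.29.

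**Figure D2:**
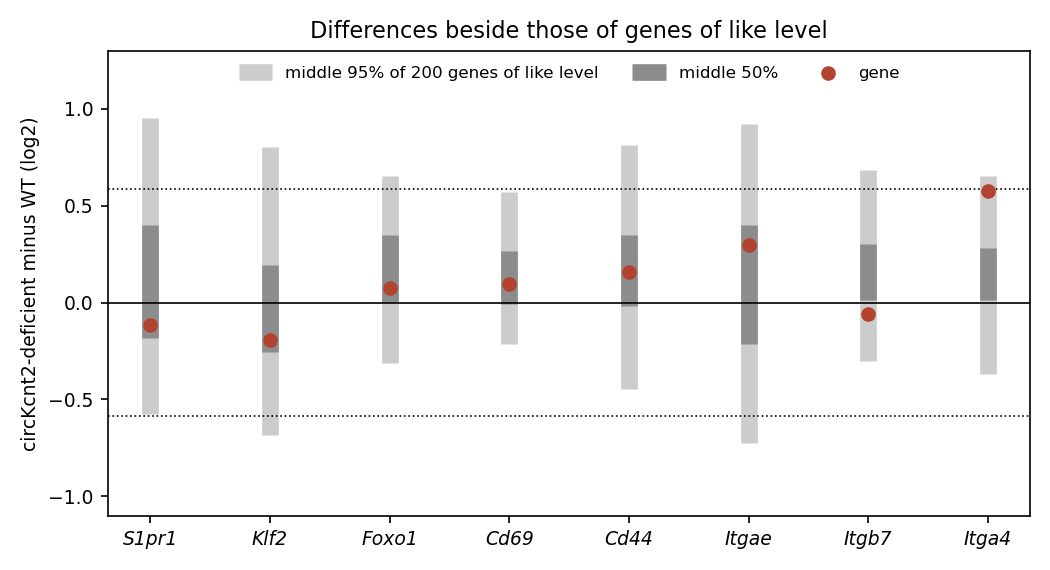
Difference between the circKcnt2-deficient and WT arrays (y axis, log2) for each of the 8 genes (point), over the middle 95% (light bar) and middle 50% (dark bar) of the 200 genes nearest in mean level. Dotted lines mark 1.5-fold. All 8 points lie inside the light bars, and Itga4 (0.57, above) and Itgb7 (-0.06, below) alone lie outside the dark ones.

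The integrin chains held the widest spread of the 8 genes. Itga4, the alpha4 chain, was at 7.11 on the circKcnt2-deficient array and 6.54 on the WT array. At 1.49-fold higher it was just short of 1.5-fold, and 92.1% of all genes above background had a lower difference. It lay above the middle 50% of genes of like level (0.01 to 0.28) but within their middle 95% (-0.37 to 0.65). Its difference ran from 0.43 to 0.57 over all settings tried.

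Itgb7, the beta7 chain that pairs with both alpha4 and alphaE, was at 6.59 on the circKcnt2-deficient array and 6.65 on the WT array. Its difference of -0.06 lay just below the middle 50% of genes of like level (0.01 to 0.30). Itgae, the alphaE chain also known as CD103, was at 4.44 on the circKcnt2-deficient array and 4.15 on the WT array, 1.23-fold higher. This difference of 0.30 lay within the middle 50% of genes of like level (-0.22 to 0.40). Both alpha chains thus had positive differences while that of their shared beta chain was slightly negative. The difference of Itga4 exceeded that of Itgb7 by 0.64, and that of Itgae exceeded it by 0.36.

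The sequences before the start sites of Itga4 and Itgb7 are shown because the 2 genes encode the chains of 1 receptor and their differences lay farthest apart among the 3 integrin genes. They are the 250 bases before a RefSeq transcript start on build GRCm38.p6, at chr2:79255176-79255425 on the plus strand for Itga4 and at chr15:102231936-102232185 on the minus strand for Itgb7, written 5′ to 3′. The RefSeq gene record of Itgb7 extends farther upstream than this start, so the Itgb7 window lies inside it, whereas that of Itga4 ends at the base before the gene. Capitals mark CACCC, the core that KLF factors bind, and TGTTT, a core within the FOXO site, each on either strand.
Itga4: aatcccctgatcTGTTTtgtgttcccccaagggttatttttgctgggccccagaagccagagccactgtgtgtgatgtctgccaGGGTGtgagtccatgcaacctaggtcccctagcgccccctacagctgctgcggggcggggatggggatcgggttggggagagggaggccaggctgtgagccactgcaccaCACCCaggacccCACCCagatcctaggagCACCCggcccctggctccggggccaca
Itgb7: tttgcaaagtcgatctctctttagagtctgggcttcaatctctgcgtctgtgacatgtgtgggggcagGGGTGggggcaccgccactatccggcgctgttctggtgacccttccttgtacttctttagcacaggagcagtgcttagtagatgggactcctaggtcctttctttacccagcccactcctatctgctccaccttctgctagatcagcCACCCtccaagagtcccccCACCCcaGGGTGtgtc
The KLF core stood 4 times in each of the windows, counting CACCC and its reverse complement GGGTG, and no marked stretches overlapped. The FOXO core (TGTTT or AAACA) stood 1 time before Itga4 and 0 times before Itgb7. Such short cores are common. At least 1 KLF core was present in 52.0% and at least 1 FOXO core in 46.4% of 32841 promoter windows of this length. The share of windows with as many as 4 KLF cores was not computed. These are matches of letters only. RefSeq windows were at hand for 5 of the 8 genes, namely Klf2, Cd44, Foxo1, Itgb7 and Itga4, and the others were S1pr1, Cd69 and Itgae.

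Other partners of these chains were compared next. Itgb1, the beta1 chain that forms VLA-4 with alpha4, was at 6.79 on the circKcnt2-deficient array and 7.08 on the WT array, a difference of -0.30. The difference of Itga4 exceeded that of this partner by 0.87. By comparison, the 2 chains of LFA-1 were nearly equal between the arrays. Itgal was at 8.80 on the circKcnt2-deficient array and 8.77 on the WT array, and Itgb2 had a difference of 0.01.

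Of 9 other alpha chains above background, 2 were past 1.5-fold on the higher side and none on the lower. Of 7 other beta chains, 1 was past it on the lower side and none on the higher. Itga5, the fibronectin receptor chain, was at 4.44 on the circKcnt2-deficient array and 3.64 on the WT array. Itgam, a chain of myeloid cells, did not reach background on the WT array, which puts it at least 1.58-fold higher on the circKcnt2-deficient array. Itgb4, the laminin receptor chain of epithelium, did not reach background on the circKcnt2-deficient array. It was past 1.5-fold by its measured values and at least 1.31-fold lower against the background level. Itgb3, which pairs with alphaV on many cells, was at 5.41 on the circKcnt2-deficient array and 5.94 on the WT array. Itga8 had a difference of -0.46, Itgb5 of 0.25, and Itga11, below background on the circKcnt2-deficient array, was at least 1.16-fold lower.

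Markers of other cells that carry integrin chains were mixed. Of 7 myeloid markers on the table, 5 reached background on at least 1 array. The list ran from 1.79 to 4.69 on the circKcnt2-deficient array and from 1.43 to 4.77 on the WT array. Lyz2 was the highest on both arrays, and Csf1r was also above background on both. The neutrophil markers S100a8 and S100a9 were below it on both. Of 7 epithelial markers 3 were above background on both arrays, namely Epcam, Vil1 and Cdh1. Vil1 was at 4.37 on the circKcnt2-deficient array and 4.44 on the WT array. Krt8, Krt18, Krt20 and Muc2 were below background on both. Of 5 B lineage markers 4 were above background on at least 1 array, 1 past 1.5-fold in each direction. Jchain, the antibody joining chain of plasma cells, was at 4.30 on the circKcnt2-deficient array and 6.72 on the WT array. Cd79b, a chain of the B cell receptor, was at 4.87 on the circKcnt2-deficient array and 3.91 on the WT array. Of 7 NK markers 4 were above background. Gzma, a granzyme of cytotoxic lymphocytes, was the 1 past 1.5-fold, at 7.02 on the circKcnt2-deficient array and 6.36 on the WT array. Klrb1c (0.58) and Prf1 (0.15) also had positive differences, whereas Gzmb, another granzyme, had a negative one (-0.36). The NK markers Ncr1, Eomes and Klre1 were below background on both arrays. The part of all these cells in the integrin values was not tested. In bulk samples, fewer cells of a type and less RNA per cell cannot be told apart.

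**Figure D3:**
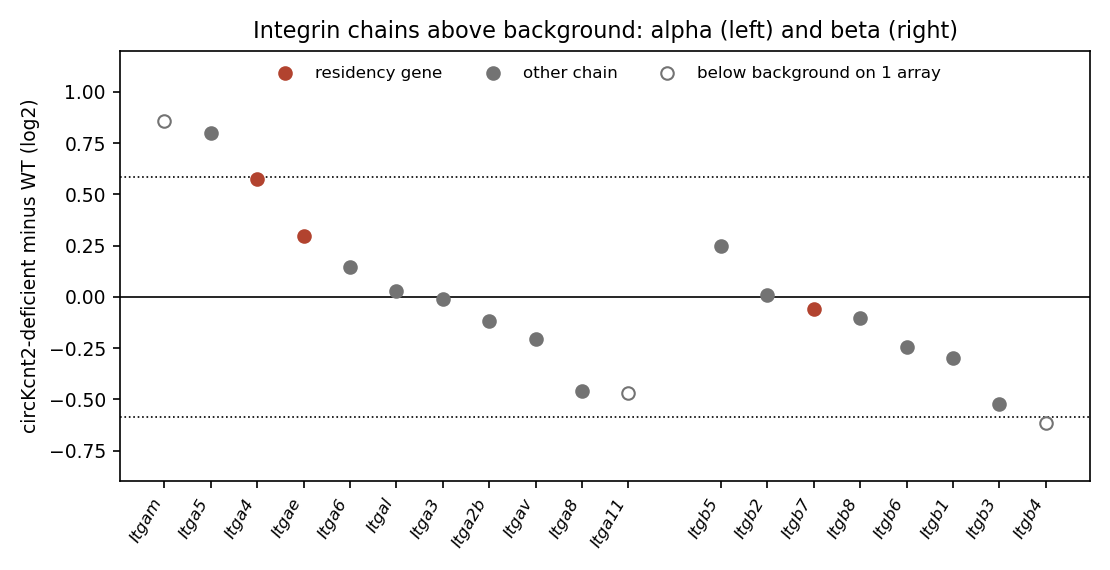
Difference between the circKcnt2-deficient and WT arrays (y axis, log2) for each integrin chain above background on at least 1 array, alpha chains on the left and beta chains on the right, sorted by difference. Red points are Itga4 (0.57), Itgae (0.30) and Itgb7 (-0.06), grey points other chains, open points chains below background on 1 array, and dotted lines mark 1.5-fold.

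Ligands of these integrins were compared as well. Cdh1, which encodes E-cadherin, was at 4.48 on the circKcnt2-deficient array and 4.50 on the WT array, and Madcam1 was below background on both. None of 5 ligand genes above background differed by 1.5-fold, with Icam2 (0.39) and Icam1 (-0.37) the widest, then Fn1 (-0.22) and Vcam1 (0.12). Genes that switch integrins to their binding state behaved alike. Of 15 above background none differed by 1.5-fold, and the median was 0.03. The widest were Sharpin (0.40), an inhibitor of integrin activation, Apbb1ip (0.36), which links RAP1 to talin, Skap1 (0.35), an adaptor of T cells, and Rasgrp2 (-0.34), an activator of RAP1.

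The residency programme, genes that resident lymphocytes share besides the 8, had 22 members above background of 23 on the table. Prdm1 was below it, at 1.65 on the circKcnt2-deficient array and 1.61 on the WT array. Rgs1 and Rgs2 belong to this list and to the signalling list above. Of the 22, 2 were past 1.5-fold on the lower side and none on the higher, and the median was -0.05. Over all genes above background, the shares were 5.22% on the lower side and 7.66% on the higher. The 2 were Rgs2, reported above, and Bhlhe40, a factor that supports mitochondrial fitness of resident T cells. Bhlhe40 was at 5.29 on the circKcnt2-deficient array and 5.92 on the WT array. Ahr, a ligand-activated factor that maintains gut ILC3s, was at 3.92 on the circKcnt2-deficient array and 4.40 on the WT array. Runx3, which promotes residency and Itgae expression, was at 7.14 on the circKcnt2-deficient array and 6.80 on the WT array. The receptors for TGF-beta, the signal that induces Itgae, had differences of -0.04 (Tgfbr1) and -0.05 (Tgfbr2). Cxcr6, a receptor of resident lymphocytes, was at 3.69 on the circKcnt2-deficient array and 3.62 on the WT array. Zfp683 and Itga1 were not analysed here.

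Over the 15 lists of related genes, with each gene counted 1 time, 157 genes were above background. Past 1.5-fold were 8 (5.10%) on the higher side and 6 (3.82%) on the lower, both near the shares of all genes given above. The median difference of the 157 genes was 0.00. Calls of single genes in these lists hold for the values as deposited. Some lay close to the threshold of 0.585, among them Ccr8 (0.602) on the higher side and Klf6 (-0.588) on the lower.

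**Figure D4:**
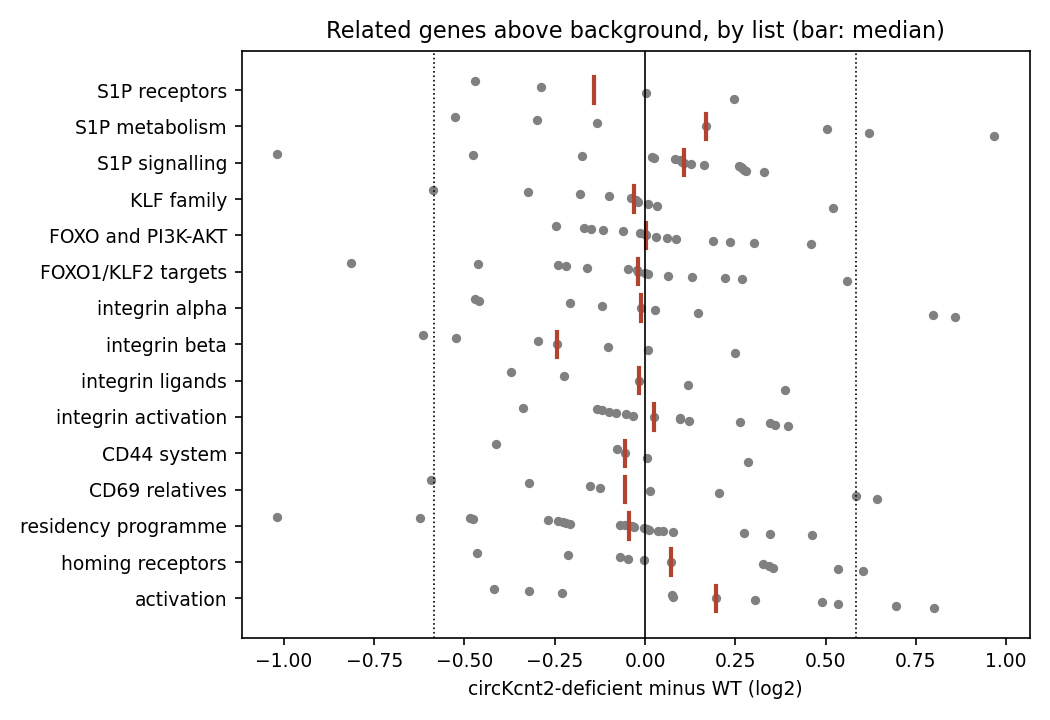
Differences between the circKcnt2-deficient and WT arrays (x axis, log2) of related genes above background on at least 1 array, 1 point per gene, grouped by list (y axis). Bars mark list medians, which lie between -0.24 for integrin beta chains and 0.20 for activation genes, and dotted lines mark 1.5-fold.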

How the data were processed

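Total RNA was taken with Trizol and hybridized to Affymetrix mouse arrays, 1 per genotype. Per the labels, the authors used Affymetrix Power Tools and RMA (versions not given in the sources), and what they deposited is 1 log2 value for each probe set and array. Whether other arrays shared the normalization is not given there. Quantile normalization within RMA would remove a shift common to all genes. Even so, genes above background had a median difference of 0.06 in the deposited values, and 56.4% of their differences were positive.

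Of 29129 probe sets, 19572 carried 1 gene symbol in the platform annotation, and probe sets of a gene were averaged (55 genes). List genes were matched by symbol, then by gene ID through RefSeq. Background was the 95th percentile, over 1410 receptor genes, of the higher of both values, and genes that reached it on at least 1 array were kept. Where 1 value was below background, the fold against that level is given as "at least". Differences were set beside those of the 200 kept genes nearest in mean level. With 1 array per group no p-value was computed. The scripts were tested on simulated data, in Python 3.11.15 with pandas 2.3.3 and statsmodels 0.14.6.

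All 8 genes are named, and up to 4 genes of each list with the widest differences. Others were named after their values were seen. The genes and lists were chosen with earlier results of these data known. Alternatives were quantile normalization, subtraction of the median difference, a loess correction on mean level (span 0.3), addition of 32 before the logarithm, the probe set with the highest mean, a 2-fold threshold, no floor, a stricter floor and means of lists.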

Additional observations from a re-analysis of the deposited data

How the results depend on the processing

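Under quantile normalization, median subtraction, the loess correction and addition of 32, none of the 8 genes passed 1.5-fold. The 8 differences moved by less than the spread of genes of like level (robust SD 0.20 to 0.41). That spread was wider than the difference itself for every gene except Itga4, so a difference could change sign and still meet it. The other choices could not change these values, since each of the 8 genes had 1 probe set and a stricter threshold or another floor cannot raise a count of 0. The retention and adhesion median ran from 0.02 (loess correction) to 0.21 (mean), and that of egress genes from -0.19 to -0.05. Cd69 and Foxo1 changed sign under 2 settings, quantile normalization and the loess correction, with lowest values of -0.05 and -0.07. So 5 of the 8 genes had positive differences as deposited and 3 under those 2 settings. Among all genes above background, 958 were past 1.5-fold on the higher side and 652 on the lower (59.5% higher). The split was 722 and 870 (45.4%) after subtraction of the median difference, and 69 and 14 (83.1%) after addition of 32. Signal limits Klf2 and Itgae most, which lay closest to background. No paired analysis was possible because each genotype had 1 array.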

Other observations

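Receptors that guide lymphocytes to tissues were compared beside the 8 genes. Of 11 above background, 1 was past 1.5-fold on the higher side and none on the lower, and the median was 0.07. The 1 was Ccr8, a receptor of skin-homing and regulatory lymphocytes, at 6.14 on the circKcnt2-deficient array and 5.54 on the WT array. Ccr9, the receptor for homing to the small intestine and also carried by thymocytes, was at 10.3 on both arrays (10.256 on the circKcnt2-deficient array and 10.259 on the WT array). Cxcr4, the receptor for CXCL12, was at 8.03 on the circKcnt2-deficient array and 7.68 on the WT array. Ccr2 had a difference of 0.53, but its WT level of 2.73 was at background, where a difference is less reliable. Cxcr5 did not reach background on the circKcnt2-deficient array, which puts it at least 1.05-fold lower there.

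Of 11 activation genes above background, 2 were past 1.5-fold on the higher side and none on the lower. Myc, a driver of growth, was at 7.77 on the circKcnt2-deficient array and 6.97 on the WT array. Tnfrsf4, the co-stimulatory receptor OX40, was at 6.67 on the circKcnt2-deficient array and 5.97 on the WT array. Il2ra, below background on the WT array, was at least 1.26-fold higher, and Tnfrsf9 had a difference of 0.49. Differences were negative for 3 of the 11, namely Irf4 (-0.42), Egr3 (-0.32) and Egr2 (-0.23), and positive for 8. Of 17 cell cycle genes above background, 8 were past 1.5-fold on the higher side and none on the lower, and the median was 0.55. Over all genes above background, these shares were 7.66% on the higher side and 5.22% on the lower. Mki67 was at 8.76 on the circKcnt2-deficient array and 7.87 on the WT array. The part of these genes in the value of Itga4 was not tested.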
